A study of Mus musculus with 10 samples.

Results

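ERK, the kinase at the end of the RAS-RAF-MEK cascade, switches on genes whose products switch it off again. Here 10 genes of families that hold such genes, called feedback genes below, were followed in the mouse retina after light damage (LD). These were the dual-specificity phosphatase genes *Dusp1*, *Dusp4*, *Dusp5*, *Dusp6* and *Dusp10*, the Sprouty genes *Spry1*, *Spry2* and *Spry4*, and the Sprouty-related genes *Spred1* and *Spred2*. They were taken by gene name from a table of 54532 genes, and all 10 were found there. The samples were 10 neural retinas of BALB/c mice, an albino strain, aged 2 months, and were sequenced as bulk RNA. Of these, 5 retinas (NL-1, NL-4, NL-5, NL-7 and NL-8) came from mice under normal light of 200 lux, and 5 (LD-1, LD-4, LD-6, LD-7 and LD-8) from mice under 15000 lux, both for 1 day after 12 hr of dark adaptation. The labels give no allele or agent for either group. The model is a mixed tissue taken at a single time, so a level here is an average over all retinal cells.

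Growth factor receptors pass their signal through RAS to RAF, MEK and ERK, and phosphorylated ERK drives immediate-early genes in the nucleus. Dual-specificity phosphatases of the MAP kinase phosphatase family remove the phosphates from the kinase itself. DUSP6 is cytoplasmic and prefers ERK, DUSP5 is its nuclear counterpart, DUSP4 is nuclear and acts on ERK and JNK, and DUSP1 and DUSP10 act mainly on JNK and p38. Sprouty and SPRED proteins act higher up, on the step from receptor to RAF, and SPRED proteins bring the RAS brake neurofibromin to the membrane. In the injured retina, ERK activation is best known from Müller glia. None of these proteins or their phosphorylation was measured in this table.

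All 10 genes passed the filter on low values (at least 0.1 FPKM in at least 5 retinas; FPKM are fragments per kilobase of gene scaled to library size, so levels may be compared between genes). They rested on 80 to 2991 reads per gene and retina. Libraries held 21343389 to 26832535 reads under NL and 18965090 to 23378090 after LD. On the log2(FPKM + 0.1) scale used for all fold changes, 8 of the 10 genes had a fold change above 0, with a median of 0.39 and a range of -0.42 to 1.53, where the median of all 24508 genes tested was -0.01. This scale understates the change of low genes. By the first rule (limma, adjusted p under 0.01 and more than 2-fold), *Dusp6* was higher after LD and no member was lower, against a background of 4.13% of all genes higher and 2.37% lower. By the second rule, an adjusted p under 0.05 with no minimum for the fold change, 4 members were higher (*Dusp5*, *Dusp6*, *Dusp10* and *Spred1*) and none was lower, where 14.5% of all genes were higher and 13.4% lower. The LD values of 3 members, *Dusp6*, *Dusp10* and *Spred1*, lay wholly above the NL values and none lay wholly below, against 11.8% and 10.6% of all genes. Without the authors' factor per retina the median of all genes moved to 0.11, and each member kept its direction.

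**Figure D1:**
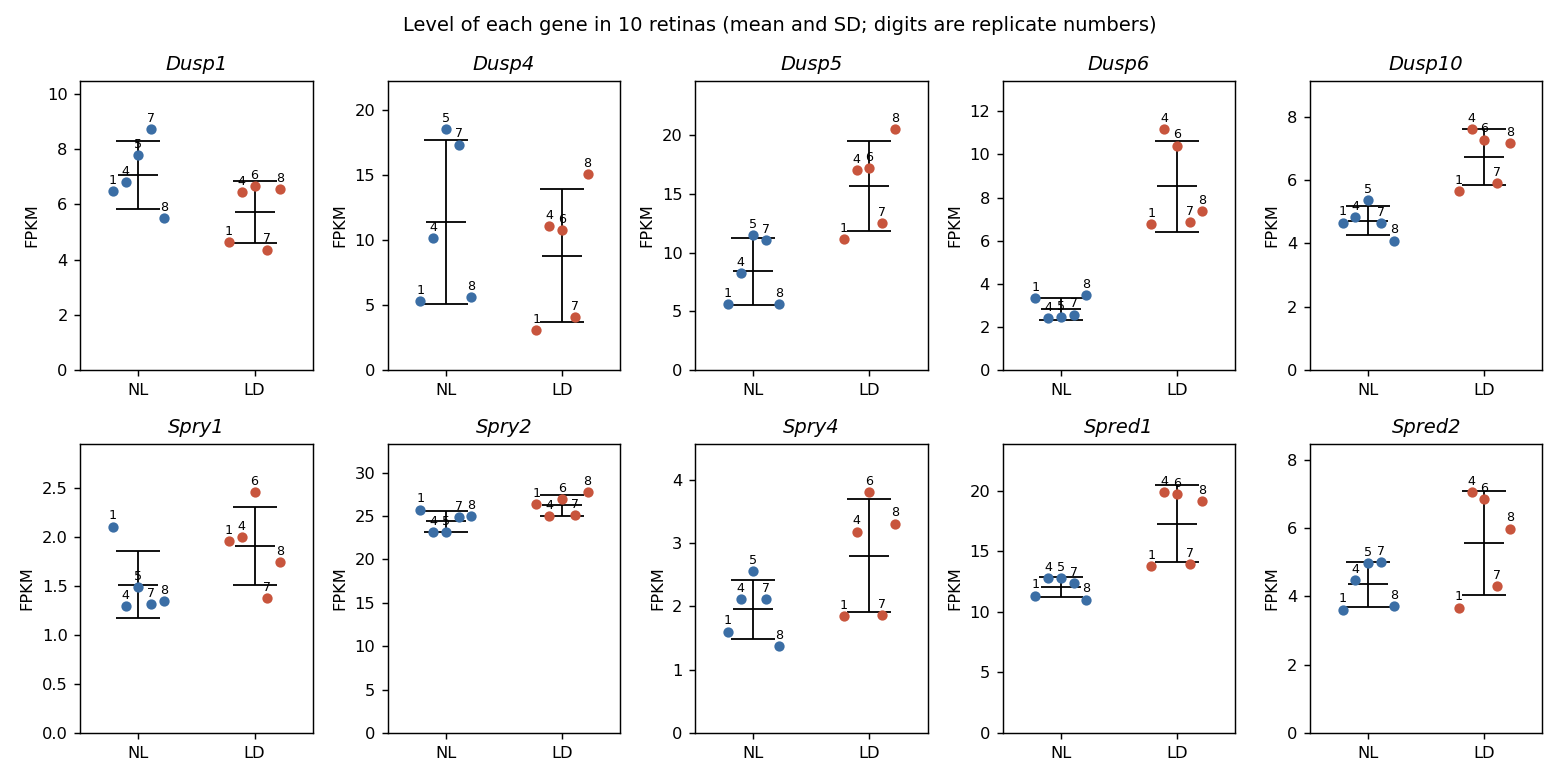
FPKM (vertical axes, from 0, a scale of its own per gene) of the 10 feedback genes in each NL (blue) and LD (red) retina. Digits are the replicate numbers of the labels, and bars give the mean and SD of 5 retinas; *Dusp6*, *Dusp10* and *Spred1* have no overlap between the groups, while *Dusp4* runs from 5.34 to 18.6 FPKM under NL and from 3.07 to 15.1 FPKM after LD.

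The libraries differed in cell markers as well as in light. The summed level of 8 rod markers was 8068 to 9881 FPKM under NL and 1192 to 2409 FPKM after LD, and all 8 were called lower. Of 5 cone markers, 4 were lower, the sum going from 297–462 to 44.8–155 FPKM. The microglia and macrophage list had 5 of 8 genes called higher (sums 31.1 to 47.3 against 57.0 to 138 FPKM), and both tested monocyte markers were higher. For Müller glia 1 of 8 markers was higher and 1 lower, with sums of 1404 to 1630 FPKM under NL and 892 to 1224 FPKM after LD. No marker of endothelium, pigment epithelium, bipolar, amacrine or ganglion cells, lens or blood was called. In bulk tissue, fewer cells of a type and less RNA per cell cannot be told apart. The markers called higher or lower moved with the light in every member's comparison, and their part in the results was not tested. In 3 pairs of retinas (NL-5 and NL-7, LD-1 and LD-7, LD-4 and LD-6) the reads were closer to each other, with a chi-square per gene of 2.52 to 3.41, than in the other pairs, at 10.9 to 38.6. The labels do not say which retinas share a mouse, so p-values measure the spread between these samples only.

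*Dusp6* encodes the cytoplasmic ERK phosphatase, a widely used readout of ERK and FGF signaling. It lies on chromosome 10 from 99263231 to 99267489 on GRCm38. Under NL it stood at 3.34 FPKM in NL-1, 2.40 in NL-4, 2.45 in NL-5, 2.57 in NL-7 and 3.47 in NL-8. After LD it stood at 6.77 FPKM in LD-1, 11.2 in LD-4, 10.4 in LD-6, 6.87 in LD-7 and 7.37 in LD-8. The lowest LD value was well above the highest NL value, with LD-4 and LD-6 highest. The mean went from 2.85 ± 0.514 to 8.52 ± 2.10 FPKM (SD, n = 5 each), 2.89-fold (95% interval 2.23 to 3.75), a log2 fold change of 1.53 (standard error 0.17; limma, Benjamini-Hochberg adjusted p = 8.8e-05). The two-sided exact permutation test gave p = 0.00794, the smallest that 5 against 5 retinas allow. Leaving out any single retina gave log2 fold changes from 1.43 to 1.61. Among 12679 other protein-coding genes, the profile over the 10 retinas most like that of *Dusp6* was that of *Tmem176b*, which encodes a membrane protein and went from 10.01 ± 1.67 to 29.1 ± 5.98 FPKM (root mean square difference of the log2 profiles 0.0846). *Fkbp10*, a collagen-folding isomerase gene, followed at 0.104.

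The RefSeq promoter window of *Dusp6*, 250 bases before to 50 after the start site, is shown since this is the member with the largest change. It holds none of the motifs searched on both strands of 8 member promoters and of 32851 mouse promoters of equal length: the ETS site CCGGAAG, in 8.86% of all promoters, the AP-1 site TGANTCA in 7.81%, the STAT site TTCNNNGAA in 8.30%, TGACG, a part of the cyclic AMP response element (CRE), in 20.8%, TATAAA in 13.6%, the E-box CACGTG in 7.15% and the CArG box in 1.63%. The letters are all in lower case for that reason, and the GC content of 57.3% compares with a median of 52.7% over all promoters.
Dusp6, chr10:99262981-99263280, plus strand, GRCm38.p6: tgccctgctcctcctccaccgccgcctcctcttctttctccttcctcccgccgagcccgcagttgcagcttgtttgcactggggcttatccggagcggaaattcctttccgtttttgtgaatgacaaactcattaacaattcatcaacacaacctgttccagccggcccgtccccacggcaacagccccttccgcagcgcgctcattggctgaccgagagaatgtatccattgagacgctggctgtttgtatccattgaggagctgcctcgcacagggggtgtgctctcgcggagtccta

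*Dusp5*, the gene of the nuclear ERK phosphatase, lies on chromosome 19 from 53529109 to 53542431. Its NL values were 5.63 FPKM in NL-1, 8.26 in NL-4, 11.5 in NL-5, 11.0 in NL-7 and 5.61 in NL-8. Its LD values were 11.1 FPKM in LD-1, 17.0 in LD-4, 17.2 in LD-6, 12.5 in LD-7 and 20.5 in LD-8. The groups met at their edges, since LD-1 lay just under NL-5. The mean went from 8.41 ± 2.82 to 15.6 ± 3.81 FPKM (SD, n = 5 each), 1.89-fold (95% interval 1.31 to 2.74), so that *Dusp5* passed the second rule and missed the first (log2 fold change 0.92, standard error 0.24; limma, Benjamini-Hochberg adjusted p = 0.0161; two-sided exact permutation p = 0.0159). This call depends on the scaling: as TPM, or without the factor per retina, its log2 fold change was 1.03 and 1.05 and it passed the first rule as well.

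The *Dusp5* promoter is shown because it was the only one of the 8 member windows with a CArG box, the site that serum response factor binds. It holds 2 of them next to each other, from -82 to -73 and from -72 to -63 relative to the start site, and TGACG on the opposite strand from -55 to -51, all in capitals. A match of letters is a description of the window, and binding was not measured.
Dusp5, chr19:53528895-53529194, plus strand, GRCm38.p6: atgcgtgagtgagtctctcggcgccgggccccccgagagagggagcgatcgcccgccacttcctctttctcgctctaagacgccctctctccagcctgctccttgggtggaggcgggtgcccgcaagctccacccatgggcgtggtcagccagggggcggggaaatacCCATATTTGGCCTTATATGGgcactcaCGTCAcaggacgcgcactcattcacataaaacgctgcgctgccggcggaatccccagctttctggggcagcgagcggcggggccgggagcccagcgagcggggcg

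*Dusp4*, whose product sits in the nucleus and acts on ERK and JNK, lies on chromosome 8 from 34807297 to 34819894. Under NL it was at 5.34 FPKM in NL-1, 10.2 in NL-4, 18.6 in NL-5, 17.4 in NL-7 and 5.63 in NL-8. After LD it was at 3.07 FPKM in LD-1, 11.1 in LD-4, 10.8 in LD-6, 4.09 in LD-7 and 15.1 in LD-8. The spread within a group was 3.47-fold under NL and 4.92-fold after LD, and the groups overlapped almost fully. With means of 11.4 ± 6.29 and 8.82 ± 5.09 FPKM (SD, n = 5 each), the log2 fold change was -0.42 (standard error 0.51, 95% interval -1.55 to 0.71; limma, Benjamini-Hochberg adjusted p = 0.597; two-sided exact permutation p = 0.476). That interval leaves room for a fall or a rise, so these retinas do not settle how *Dusp4* responded. Its SD within groups, 0.92 on the log2 scale, was higher than in 96.4% of expressed genes (1 FPKM or more on average under NL or LD), whose median was 0.155. These values rested on 205 to 1032 reads per retina. Added after the values were seen, the gene most like it, by profiles centred as for *Dusp6*, was *Myh7b*, a myosin heavy chain gene. *Myh7b* was at 5.95 ± 3.03 and 4.14 ± 2.44 FPKM under NL and LD (root mean square difference 0.158, next gene *Cacna1s* at 0.369).

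**Figure D2:**
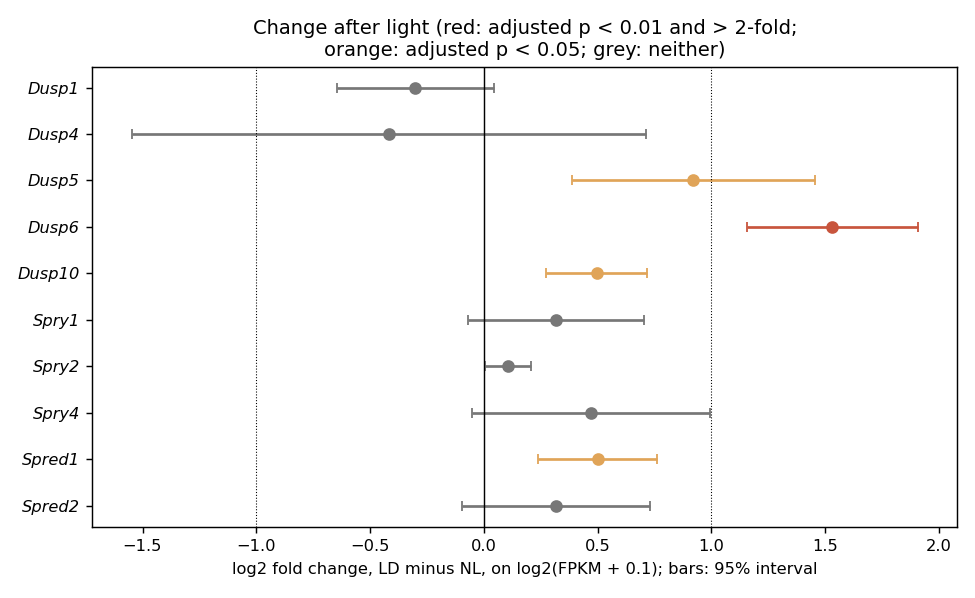
Log2 fold change of each gene (LD minus NL, horizontal axis, on log2(FPKM + 0.1)) with its 95% interval from limma, n = 5 retinas a group; dotted lines mark a change of 2-fold. Only the interval of *Dusp6* (1.15 to 1.91) lies wholly beyond 2-fold, those of *Dusp5*, *Dusp10*, *Spred1* and, barely, *Spry2* lie above 0, and that of *Dusp4* is the widest.

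Of the phosphatases that act mainly on JNK and p38, *Dusp10* was higher by the second rule only, and *Dusp1* passed neither. *Dusp10*, on chromosome 1 from 184013302 to 184075636, was at 4.66 FPKM in NL-1, 4.83 in NL-4, 5.38 in NL-5, 4.65 in NL-7 and 4.09 in NL-8. After LD it was at 5.65 FPKM in LD-1, 7.60 in LD-4, 7.27 in LD-6, 5.90 in LD-7 and 7.16 in LD-8. The groups did not overlap, although LD-1 and NL-5 lay close. The rise from 4.72 ± 0.460 to 6.72 ± 0.880 FPKM (SD, n = 5 each) was 1.41-fold (95% interval 1.21 to 1.64), a log2 fold change of 0.50 (standard error 0.10; limma, Benjamini-Hochberg adjusted p = 0.00399; two-sided exact permutation p = 0.00794). *1700056E22Rik* overlaps it on the opposite strand at 0.656 FPKM at most, and whether reads were counted by strand is not given in the sources used here.

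*Dusp1*, an immediate-early gene of stress and growth signals, lies on the minus strand of chromosome 17 from 26505590 to 26508519. It stood at 6.48 FPKM in NL-1, 6.79 in NL-4, 7.78 in NL-5, 8.71 in NL-7 and 5.49 in NL-8. After LD the values were 4.62 FPKM in LD-1, 6.44 in LD-4, 6.65 in LD-6, 4.36 in LD-7 and 6.55 in LD-8. The groups overlapped, with LD-1 and LD-7 below all NL retinas. The means were 7.05 ± 1.24 and 5.72 ± 1.13 FPKM (SD, n = 5 each), and the log2 fold change of -0.30 (standard error 0.16, 95% interval -0.65 to 0.04) did not pass (limma, Benjamini-Hochberg adjusted p = 0.184; two-sided exact permutation p = 0.127). A rise of *Dusp1* above 1.03-fold lies outside its interval in this scaling. As TPM or without the factor per retina its log2 fold change was -0.20 and -0.17, and the interval for those was not worked out.

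The *Dusp1* window is printed because it alone among the 8 held the full CRE TGACGTCA, which 1.79% of all promoters hold and which contains TGACG on both strands, from -143 to -136. A further TGACG lies from -191 to -187, and the E-box CACGTG, not in capitals, is in the same window. In the 8 windows TGACG was found in *Dusp1*, *Dusp5* and *Spred2*.
Dusp1, chr17:26508423-26508722, minus strand, GRCm38.p6: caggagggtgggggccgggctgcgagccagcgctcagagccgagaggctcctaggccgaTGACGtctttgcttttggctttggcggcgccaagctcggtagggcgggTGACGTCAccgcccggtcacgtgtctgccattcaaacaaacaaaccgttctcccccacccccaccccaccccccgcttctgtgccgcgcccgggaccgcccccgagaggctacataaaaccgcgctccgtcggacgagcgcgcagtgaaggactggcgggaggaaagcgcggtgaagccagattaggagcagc

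The Sprouty genes encode membrane-bound inhibitors of receptor tyrosine kinase signaling. *Spry2*, on the minus strand of chromosome 14 from 105891947 to 105896819, had the highest level of the 10 genes in both groups. It was at 25.7 FPKM in NL-1, 23.1 in NL-4, 23.2 in NL-5, 24.9 in NL-7 and 24.96 in NL-8. After LD it was at 26.3 FPKM in LD-1, 25.03 in LD-4, 26.9 in LD-6, 25.1 in LD-7 and 27.8 in LD-8. All 10 retinas thus lay in a narrow band, and the groups overlapped. The means of 24.4 ± 1.16 and 26.2 ± 1.19 FPKM (SD, n = 5 each) gave a log2 fold change of 0.11 (standard error 0.05, 95% interval 0.0033 to 0.21; limma, Benjamini-Hochberg adjusted p = 0.119; two-sided exact permutation p = 0.0397). A change of *Spry2* above 1.16-fold lies outside the interval, since its SD within groups, 0.067 on the log2 scale, was larger than in only 9.37% of expressed genes. As TPM or without the factor per retina its log2 fold change was 0.21 and 0.24 and passed the second rule.

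*Spry4* and *Spry1* were the lowest members. *Spry4*, on chromosome 18 from 38586268 to 38601268, ranged from 1.38 to 2.56 FPKM under NL (median 2.11) and from 1.85 to 3.81 FPKM after LD (median 3.18). Its log2 fold change of 0.47 (standard error 0.24, 95% interval -0.05 to 0.99) did not pass (limma, Benjamini-Hochberg adjusted p = 0.174; two-sided exact permutation p = 0.111). LD-4, LD-6 and LD-8 lay above all NL retinas, and LD-1 and LD-7 among them. *Spry1*, on chromosome 3 from 37639947 to 37644598, ranged from 1.30 to 2.11 FPKM under NL and from 1.37 to 2.46 FPKM after LD, and its log2 difference was 0.32 (standard error 0.17, 95% interval -0.07 to 0.70; limma, Benjamini-Hochberg adjusted p = 0.212; two-sided exact permutation p = 0.135). The high NL value was that of NL-1. Both genes overlap others on the opposite strand, *Gm27804* and *Gm27369* (at most 0.738 FPKM) and *Gm42922* (at most 0.0712 FPKM).

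Of the SPRED genes, brakes on RAF activation, *Spred1* was higher by the second rule only, and *Spred2* passed neither. *Spred1*, on chromosome 2 from 117121374 to 117182279, stood at 11.3 FPKM in NL-1, 12.8 in NL-4, 12.8 in NL-5, 12.4 in NL-7 and 11.0 in NL-8. After LD it stood at 13.8 FPKM in LD-1, 19.9 in LD-4, 19.7 in LD-6, 13.9 in LD-7 and 19.1 in LD-8. The groups did not overlap, and the LD retinas fell into LD-1 and LD-7 below 14 FPKM and the other 3 above 19 FPKM. The means of 12.1 ± 0.829 and 17.3 ± 3.15 FPKM (SD, n = 5 each) differed 1.41-fold (95% interval 1.181 to 1.693; log2 fold change 0.50, standard error 0.12; limma, Benjamini-Hochberg adjusted p = 0.00906; two-sided exact permutation p = 0.00794). *Spred2*, on chromosome 11 from 19924375 to 20024026, ranged from 3.61 to 4.997 FPKM under NL and from 3.67 to 7.06 FPKM after LD. With means of 4.35 ± 0.663 and 5.57 ± 1.52 FPKM (SD, n = 5 each), its log2 fold change of 0.32 (standard error 0.19, 95% interval -0.10 to 0.73) did not pass (limma, Benjamini-Hochberg adjusted p = 0.249; two-sided exact permutation p = 0.175).

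By mean level under NL the order was *Spry2*, *Spred1*, *Dusp4*, *Dusp5*, *Dusp1*, *Dusp10*, *Spred2*, *Dusp6*, *Spry4* and *Spry1*. Neighbours were apart, with no overlap of their 5 values, between *Spry2* and *Spred1*, between *Dusp1* and *Dusp10*, and between *Spred2* and *Dusp6*. After LD *Dusp6* stood in place 5 instead of 8, behind *Spry2*, *Spred1*, *Dusp5* and *Dusp4* and ahead of *Dusp10*, *Dusp1*, *Spred2*, *Spry4* and *Spry1*. In that order *Spry2* and *Spred1* were apart, and all other neighbours overlapped.

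Whether genes of like role responded alike was asked with the ratio of their levels in the same retina, for 7 pairs, by two-sided exact permutation tests with Benjamini-Hochberg adjustment over the 7. The log2 ratio of *Dusp1* to *Dusp10* lay between 0.42 and 0.89 under NL and between -0.43 and -0.13 after LD, so *Dusp1* was the higher of the pair in all 5 NL retinas and the lower in all 5 LD retinas. The shift was -0.80 (standard error 0.10; exact p = 0.00794, adjusted p = 0.0278). For *Dusp4* to *Dusp5* the log2 ratio was -0.08 to 0.69 under NL and -1.83 to -0.44 after LD, again without overlap, a shift of -1.34 (standard error 0.32; exact p = 0.00794, adjusted p = 0.0278). NL-1, NL-8, LD-1 and LD-7 were low in both genes, and the ratio separated groups that *Dusp4* alone did not.

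The other 5 pairs did not pass at an adjusted p of 0.05. For *Dusp4* to *Dusp6* the shift was -1.95 (standard error 0.60; exact p = 0.0238, adjusted p = 0.0556), with the groups overlapping between 0.66 and 1.02. The nuclear and cytoplasmic ERK phosphatases *Dusp5* and *Dusp6* shifted by -0.61 (standard error 0.36; exact p = 0.119, adjusted p = 0.167), and *Spred1* to *Spred2* by 0.18 (standard error 0.09; exact p = 0.0873, adjusted p = 0.153). Both Sprouty pairs had an adjusted p of 0.238 in the exact test, with shifts of 0.21 for *Spry1* to *Spry2* and -0.36 for *Spry2* to *Spry4*. These misses do not show that the genes of a pair respond alike. Without any 1 retina other than LD-8 the smallest adjusted p of the exact tests was 0.0556, and with the 3 close pairs of retinas averaged it was 0.2, since fewer samples raise the smallest p that an exact test can give. With those retinas averaged too few values are left for any ratio to pass at 0.05, so that setting cannot tell whether the shifts hold.

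**Figure D3:**
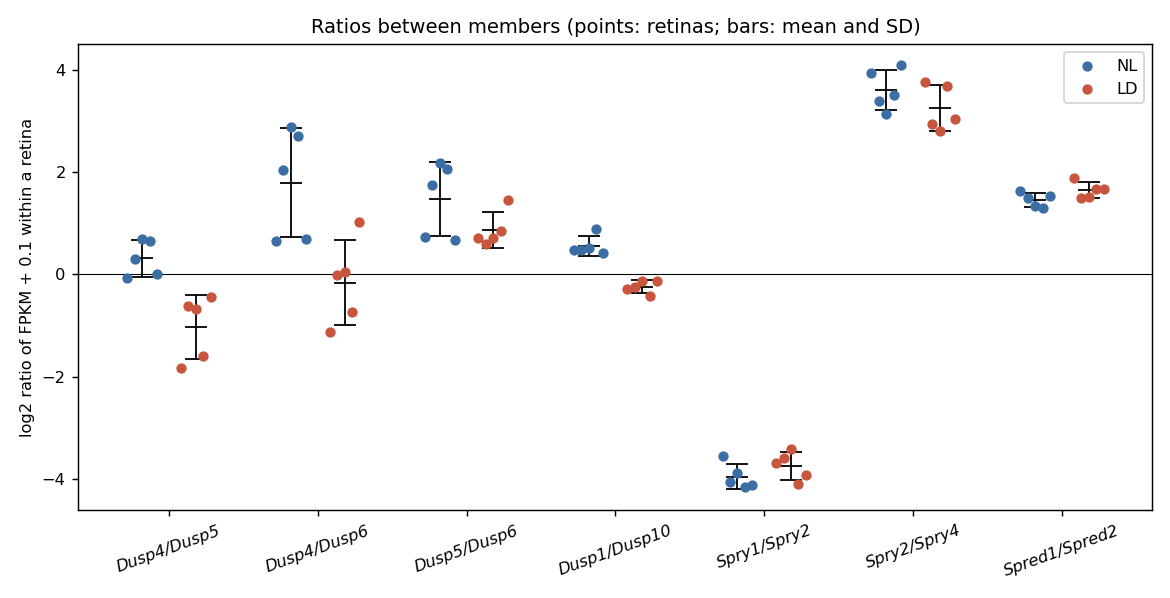
Log2 ratio of 2 genes within a retina (vertical axis, from FPKM + 0.1) for the 7 pairs, NL in blue and LD in red, with mean and SD of 5 retinas; the horizontal line marks equal levels. For *Dusp1*/*Dusp10* the points change sides, from 0.42–0.89 to -0.43 to -0.13, and for *Dusp4*/*Dusp5* the groups also do not overlap.

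Within the groups 6 of the 10 members shared an order of retinas, noticed after the values were seen and given without a test. NL-1 and NL-8 were the lowest NL retinas, and LD-1 and LD-7 the lowest LD retinas, in these 6: *Dusp1*, *Dusp4*, *Dusp5*, *Spry4*, *Spred1* and *Spred2*. Of all genes tested 5.29% had this order, and 6.61% of the expressed ones. The reverse, with these retinas highest in their groups, was held by 6.35% of all genes, 8.6% of the expressed ones and no member. LD-1 and LD-7 alone were lowest in 8 members, as they were in 4905 of all 24508 genes. *Dusp6*, *Spry1* and *Spry2* went the other way in NL-1, which was above their NL mean, and *Dusp6* and *Spry2* also in NL-8. The members are not independent of each other, and LD-1 and LD-7 are also a pair with close reads. The order also held in 1 of 5 further family genes (*Spred3*), 5 of 19 ERK-induced transcripts, 3 of 25 RAS-ERK cascade genes, 1 of 16 JNK and p38 cascade genes, 0 of 13 RAS and receptor brakes and 0 of 13 receptor tyrosine kinases. The reverse was held by 4 of 13 brakes, 3 of 25 RAS-ERK cascade genes, 1 of 19 ERK-induced transcripts and no gene of the other pathway lists. *Etv4*, an ETS factor gene induced by ERK, was picked from the genes with the first order after the values were seen. It was at 1.01 and 1.10 FPKM in NL-1 and NL-8 and from 3.66 to 4.73 FPKM in the NL retinas left. In LD-1 and LD-7 *Etv4* was at 1.32 and 1.31 FPKM, and elsewhere after LD from 4.02 to 6.37 FPKM. Also picked after the values were seen, the summed level of 5 bipolar cell markers followed the same order. It was 264 and 255 FPKM in NL-1 and NL-8 against 315 to 319. In LD-1 and LD-7 it was 239 and 244 FPKM against 291 to 348, and 3 of the 5 markers had the order singly. So did 2 of 6 amacrine, 2 of 8 Müller glia and 1 of 4 tested blood markers, and no marker of the other cell types. The blood marker sum had the order too, narrowly under NL (NL-1 at 19.8 and NL-4 at 20.1 FPKM), and the other marker sums did not. Rod markers summed to 2306 and 1922 FPKM in LD-1 and LD-7 against 1192 and 1271 FPKM in LD-4 and LD-6. Microglia and macrophage markers were highest in LD-1 and LD-7, at 138 and 118 FPKM. The mitochondrial share of reads, picked likewise, was 1.91% and 1.89% in NL-1 and NL-8 against 2.05% to 2.16%. It was 1.69% and 1.52% in LD-1 and LD-7 against 2.001% to 2.22%. The part of any of these in the members' order was not tested.

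**Figure D4:**
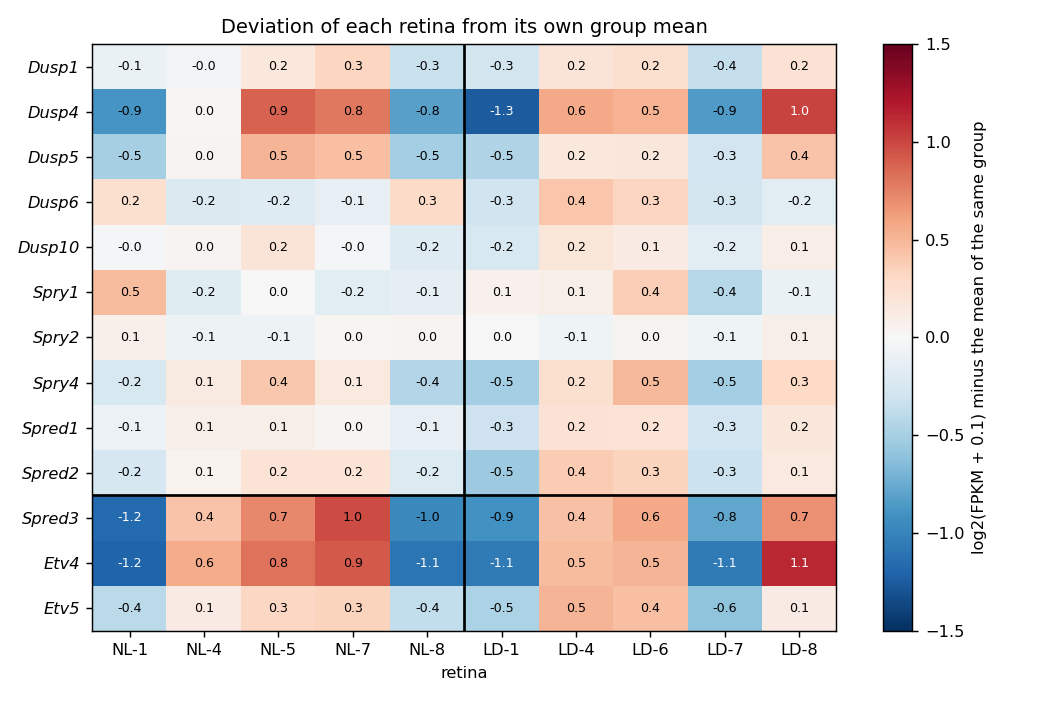
Deviation of each retina (columns) from the mean of its own group on log2(FPKM + 0.1), blue below and red above, for the 10 members (rows above the line) and for *Spred3*, *Etv4* and *Etv5*, chosen after the values were seen. NL-1, NL-8, LD-1 and LD-7 are below their group mean in *Dusp1*, *Dusp4*, *Dusp5*, *Spry4*, *Spred1* and *Spred2* and in the 3 added genes, most of all in *Dusp4*, *Spred3* and *Etv4*.

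Of the further genes of these families, 5 of 7 were tested and none passed the first rule. By the second rule *Dusp8* (log2 fold change 0.45, limma, Benjamini-Hochberg adjusted p = 0.00991) and *Dusp16* (0.54, adjusted p = 7.6e-04), both phosphatases of JNK and p38, were higher. *Dusp7*, a cytoplasmic ERK phosphatase gene like *Dusp6*, was lower, going from 19.5 ± 2.56 to 13.7 ± 1.45 FPKM (log2 fold change -0.50, limma, Benjamini-Hochberg adjusted p = 0.00411). These 3 genes are named by the second rule, after their values were seen. By that rule 14.5% of all genes were higher and 13.4% lower.

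A list of transcripts that ERK can induce was compared beside the feedback genes. It was chosen with earlier results of these data known, and ERK activity itself was not measured. Of 19 transcripts known to be induced by ERK, 12 passed the first rule as higher and none as lower, where 4.13% and 2.37% of all genes did. Their median log2 fold change was 1.47, against 0.39 for the 10 feedback genes. The transcription factor gene *Myc* went from 0.318 ± 0.117 to 4.84 ± 0.663 FPKM (SD, n = 5 each; log2 fold change 3.61, limma, Benjamini-Hochberg adjusted p = 1.5e-06). The NL level of *Myc* is low, so the size of its change depends on the pseudocount. The immediate-early gene *Egr2* went from 0.034 ± 0.040 to 2.93 ± 0.500 FPKM, and at so low an NL level its log2 fold change of 4.52 depends on the pseudocount (limma, Benjamini-Hochberg adjusted p = 2.2e-07). *Plaur*, the urokinase receptor gene, went from 0.089 ± 0.050 to 1.08 ± 0.309 FPKM, and *Egr3* from 0.222 ± 0.0476 to 1.58 ± 0.153 FPKM. Their log2 fold changes of 2.65 and 2.39 also depend on the pseudocount (limma, Benjamini-Hochberg adjusted p = 3.2e-05 and 2.0e-06). The myeloid and rod markers given above moved with these genes, and their part in the list's values was not tested.

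The cascade that the feedback genes act on was listed as well. For the counts here and in the next paragraph, the shares over all genes were 4.13% higher and 2.37% lower by the first rule. By the second rule they were 14.5% higher and 13.4% lower. Of 25 RAS-ERK cascade genes, 2 passed the first rule as higher, the RAS-related GTPase genes *Rras* (8.18 ± 0.771 to 30.7 ± 7.77 FPKM, log2 fold change 1.86, limma, Benjamini-Hochberg adjusted p = 1.4e-05) and *Rras2* (1.28 ± 0.260 to 3.01 ± 0.594 FPKM, log2 fold change 1.177, limma, Benjamini-Hochberg adjusted p = 5.3e-04). By the second rule 10 were higher and 4 lower, and the median was 0.11. Of 13 RAS and receptor brakes, the cytokine-signaling inhibitors *Socs3* (2.12 ± 0.304 to 51.0 ± 19.0 FPKM, log2 fold change 4.46) and *Socs1* (0.214 ± 0.0550 to 2.62 ± 0.600 FPKM, log2 fold change 3.10) passed the first rule as higher, and the median of the list was 0.12. At its low NL level the log2 fold change of *Socs1* depends on the pseudocount.

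Among 16 JNK and p38 cascade genes, *Jun* passed the first rule (17.0 ± 1.80 to 39.3 ± 4.01 FPKM, log2 fold change 1.21), 4 were higher and 5 lower by the second rule, and the median was 0.06. Of 14 receptor tyrosine kinases upstream, 13 were tested and *Met*, the hepatocyte growth factor receptor gene, passed the first rule (2.15 ± 0.0996 to 6.66 ± 1.71 FPKM, log2 fold change 1.55). By the second rule 5 receptors were higher and none lower, with a median of 0.10. In limma with Benjamini-Hochberg adjustment the largest adjusted p of *Socs3*, *Socs1*, *Jun* and *Met* was 5.7e-05, that of *Met*.

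**Figure D5:**
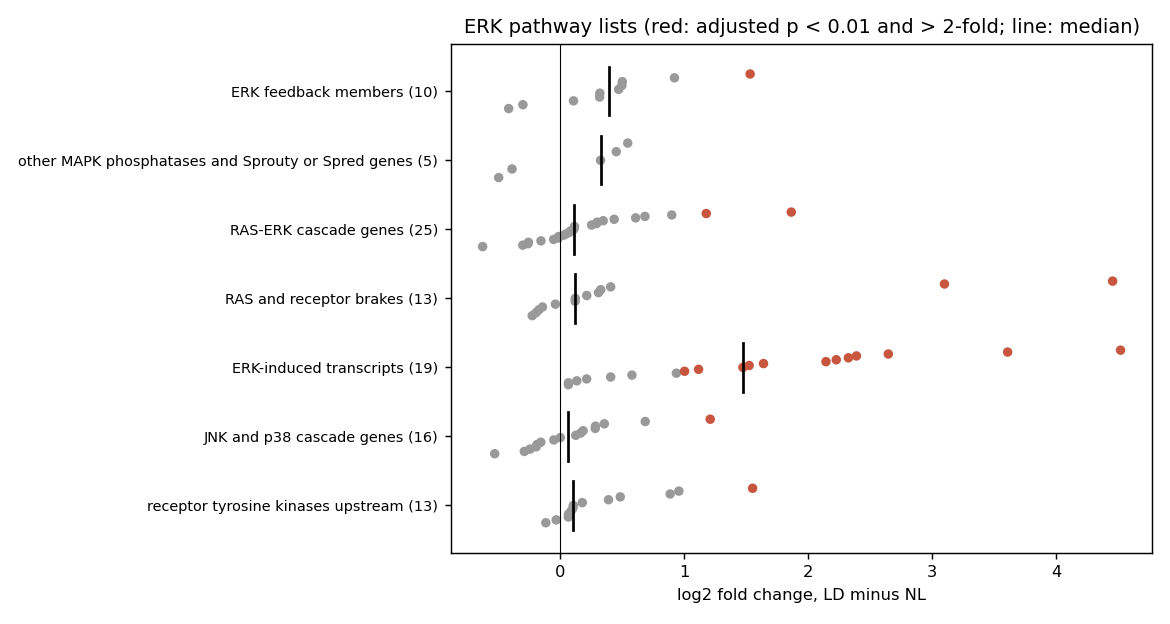
Log2 fold change (LD minus NL, horizontal axis) of each tested gene of 7 lists, with the number tested in parentheses; black lines are medians and red points passed the first rule. The ERK-induced transcripts have a median of 1.47 and 12 red points, the 10 feedback genes a median of 0.39 and 1 red point, and the cascade lists medians near 0.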

How the data were processed

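Total RNA of 10 neural retinas (5 NL, 5 LD, grouped by their labels) was sequenced on an Illumina instrument, for which labels and paper name different models. The authors deposited FPKM values for 54532 genes with GRCm38 positions. The submitters' processing notes name TopHat2 2.0.9, Bowtie2 2.0.6 and mm8, which is not the build of the positions; the counting program is not given in the sources used here. FPKM times gene length gave whole reads for all values (tolerance 0.001). The authors' library sizes were those reads times 0.951 to 0.968 (NL) or 1.041 to 1.069 (LD).

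log2(FPKM + 0.1) was compared by limma 3.58.1 (R 4.3.3, intensity trend, no block) over 24508 genes, with Benjamini-Hochberg adjustment, and single values by two-sided exact permutation tests (scipy 1.17.1, Python 3.11.15). In simulated data for this comparison (24508 genes), 45 of 50 genes raised by 1.5 (log2) were called. The raised genes were not drawn from those with low levels, and changes smaller than 1.5 were not simulated. Promoters are from RefSeq (GRCm38.p6), which matched 8 of 10 members.

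The text names all members, up to 4 genes per list past both thresholds by the size of their change, and the 2 genes most like each member past both thresholds; other names were chosen after their values were seen, as the text says. Members and lists were chosen with earlier results of these data known. Alternatives changed pseudocount, filter, scaling, test, trend, threshold, block, a covariate and the retinas included. Some genes are not reported here.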

Additional observations from a re-analysis of the deposited data

Results flagged for a closer look

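*Spry1* in NL-1 stood apart from its group, at 2.11 FPKM where the other 4 NL retinas were at 1.30 to 1.49 FPKM. Of the 20 groups of 5 values examined (10 genes, NL and LD), this was the only one in which an end value stood that far off, and chance alone flags about 1 in 20 groups. Leaving NL-1 out gave *Spry1* a log2 fold change of 0.44, which still did not pass.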

How the results depend on the processing

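Of 230 log2 fold changes of members over 23 alternatives, none changed direction and 227 stayed on their side of the first rule. The member count of 1 became 2 as TPM and 2 without the factor per retina (*Dusp5* added), 0 with the replicate block over the shared numbers, and 4 with only an adjusted p under 0.05. Under the block *Dusp6* had a log2 fold change of 1.40 and a limma adjusted p of 0.0119 (range over alternatives 4.3e-05 to 0.0119), and the members with an adjusted p under 0.05 went from 4 to 2. The labels share only the numbers 1, 4, 7 and 8, and retinas of one number did not deviate together (r = 0.057, 0.066, -0.012 and -0.089), so the numbers were not taken as pairs. All genes called numbered 1595, and 816 with a pseudocount of 1, 808 with the replicate block (1182 for the same retinas without it) and 6818 with only an adjusted p under 0.05. Genes called in the lists numbered 18, and 49 with only an adjusted p under 0.05. Of the 7 ratios 2 passed, 4 with a pseudocount of 1, and 0 both for retinas of shared numbers without a block and with the closest pairs averaged. They ranged from 0 to 3 without 1 retina. Fewer samples raise the smallest p that an exact test can give, and with the closest pairs averaged no ratio could have passed. The order of retinas seen in 6 members was seen in 7 without the factor per retina and in 6 as TPM, both added after seeing the data. Depth limits *Spry1* most, at 80 to 160 reads.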
